A study of Homo sapiens with 4 samples.

Results

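The cells described here are 129 of the 7275 cells in the day 0 library of SIRT1 knockout H9 cells, chosen because each held RNA of at least 2 of 4 genes: COL1A1, COL3A1, COL6A3 and LUM. H9 is a human embryonic stem cell line, and SIRT1 is an NAD-dependent protein deacetylase. The series profiled wild-type H9 and H9 with a SIRT1 deletion, each at day 0 and day 6 of differentiation into dopaminergic neurons, by droplet RNA sequencing of transcript 3′ ends. There were 4 libraries, 1 per genotype and day, holding 22599 cells. Per the labels, the H9 cultures were maintained in mTeSR1 medium on Geltrex, and the day 0 libraries differed in the SIRT1 deletion. The labels do not say how the deletion was made, which part of the gene it removed or how many clones it came from. A cell was a barcode with at least 4000 unique molecular identifiers (UMIs, each counting 1 captured RNA molecule), at least 1000 genes and at most 20% mitochondrial UMIs.

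Type I and type III collagen form the banded fibrils of connective tissue, type VI collagen forms beaded filaments beside them, and lumican is a small proteoglycan that binds fibrils. Mesenchymal cells such as fibroblasts secrete these proteins, carry vimentin filaments and are held to the matrix by integrins. Pluripotent stem cells are instead a sheet of epithelial cells held together by E-cadherin, and they express the factors POU5F1, NANOG and SOX2.

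Only some of the 129 cells held much collagen RNA with little pluripotency RNA. They were 31 by limits described below, which were set after the values were seen. The label of mesenchymal-like cells is thus not used for all members, and the cells are named by their RNA here. Members made up 1.77% (1.48 to 2.10) of the knockout cells and 0.849% (0.625 to 1.13) of the wild-type cells, 47 of 5533. Ranges in parentheses are exact 95% intervals, which cover counting error in these libraries only. Of the 129 members, 86 held exactly 2 of the 4 genes, 26 held 3 and 17 held all 4. In wild type at day 0, 1 cell held 3 of the genes and none held all 4, which allows a share of up to 0.0666%. The count of UMIs from the 4 genes in a member ran from 2 through a median of 3 to 192. It was exactly 2 in 45 members and 2 or 3 in 68, while 45 members held 10 or more, and 2 wild-type members did.

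Just outside the rule stood 2371 cells with RNA of a single one of the genes, of which 2273 held COL1A1 alone, with at most 17 UMIs. Just inside stood the 45 members with 2 UMIs, of which 43 held a COL1A1 UMI, 27 a COL6A3 UMI, 13 a COL3A1 UMI and 7 a LUM UMI. COL1A1 was not particular to the members: a UMI of it was found in 33.0% (31.9 to 34.1) of the knockout cells and 52.6% (51.3 to 54.0) of the wild-type cells. A UMI of COL3A1, COL6A3 or LUM was found in 3.12% of the knockout cells and in 1.41% of the wild-type cells. With every cell first thinned to 4000 UMIs, 0.825% of the knockout cells and 0.108% of the wild-type cells met the rule.

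After these values were seen, the members were set apart by 2 limits, 10 UMIs of the 4 genes and a limit on pluripotency RNA. The second was 21.8 UMIs of 12 pluripotency genes per 10000 UMIs, the 5th percentile of the non-member cells, which are called the other cells from here on. The 31 collagen-rich cells, as the name is used here, had 10 or more UMIs of the 4 genes and stood under this limit. They held a median of 83 UMIs of the 4 genes and 5.97 pluripotency UMIs per 10000, against 34.3 in the other cells. A mixed group of 14 cells also held 10 or more collagen UMIs, but with a median of 28.2 pluripotency UMIs per 10000. The remaining 84, the low-collagen members, held 2 to 9 UMIs of the 4 genes and a median of 35.4 pluripotency UMIs per 10000. Of the cells with 10 or more collagen UMIs, 4 lay within 10% of the pluripotency limit, 6 held fewer than 20 collagen UMIs, and 11 low-collagen members held 5 or more.

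**Figure D1:**
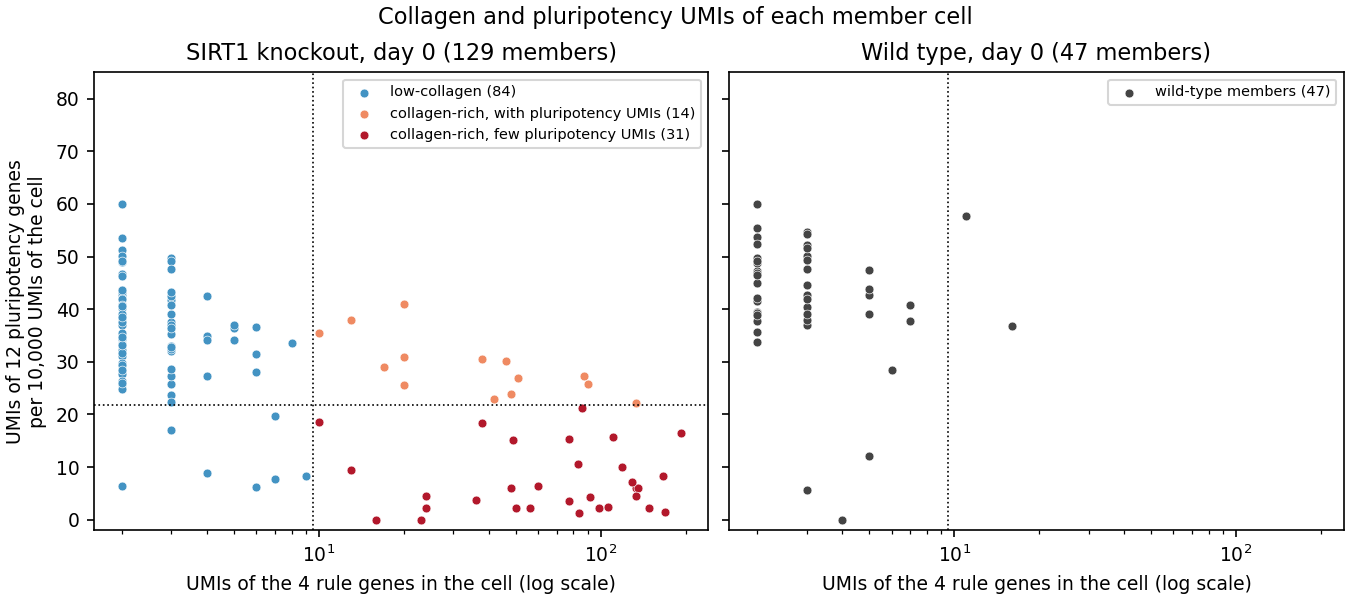
Each point is a member cell, by its UMIs of the 4 rule genes (log scale) and its UMIs of 12 pluripotency genes per 10,000 UMIs, in the knockout (left) and the wild-type (right) library of day 0; dotted lines mark 10 collagen UMIs and, on the left, 21.8 pluripotency UMIs. The lower right region holds 31 knockout cells and no wild-type cell.

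The groups also differed in depth. The collagen-rich cells had a median of 7822 UMIs and 2834 genes, the mixed cells 26415.5 UMIs, the low-collagen members 11634 and the other cells 8340. Of the mixed cells, 11 of 14 held 20000 UMIs or more, against 1 of the 31 collagen-rich cells. None of the 45 was among the 423 highest doublet scores of the library, while 5 of the 84 low-collagen members were. The part of 2 cells sharing a droplet in the mixed group was not tested. Mitochondrial UMIs had medians of 3.81% in the collagen-rich, 2.99% in the mixed, 4.41% in the low-collagen and 4.82% in the other cells. No member shared its barcode with a cell of another library, while 18 other cells shared one with wild type at day 0.

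When the library was clustered without the 4 rule genes, all 31 collagen-rich cells and 12 of the 14 mixed cells fell into 1 cluster of 165 cells. Only 6 of the 84 low-collagen members were in it, and the rest spread over the other clusters. The same cluster held 116 cells outside the rule. Its leading genes were NPY, TNC, FN1, MFAP4, H19, IGFBP5, COL2A1, CCDC80, LGALS1 and SCX.

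The levels of the 4 rule genes chose the members and are given as a description. Levels are UMIs per 1000000 of the summed cells (CPM). COL1A1, the alpha 1 chain of type I collagen (chromosome 17, 50183289 to 50201632 of GRCh38, the build of all positions here), was at 7877 CPM (7540.5 to 8225) in the collagen-rich cells. It was at 1306 CPM in the mixed, 109 CPM in the low-collagen, 43.1 CPM in the other and 69.2 CPM in the wild-type non-member cells. In single collagen-rich cells it ran from 7.65 through a median of 66.8 to 266 UMIs per 10000. COL3A1, the type III chain (chromosome 2, 188974320 to 189012746), was at 719.6 CPM in the collagen-rich and 0.503 CPM in the other cells, with a UMI in 26 of the 31. COL6A3, a chain of type VI collagen (chromosome 2, 237324003 to 237414375), was at 1003 and 0.698 CPM in those groups and present in 27 of the 31. LUM, which encodes lumican (chromosome 12, 91102629 to 91111831), was at 314 and 0.251 CPM and present in 18. The 45 cells with 10 or more collagen UMIs were 0.619% of the cells and 0.872% of the UMIs of the library, and they held 77.0% of its COL6A3 UMIs and 44.2% of its COL1A1 UMIs.

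The rest of the transcriptome was compared as sums over cells, with no test, since the members come from 1 library and were chosen on this contrast. A gene is called higher or lower where its level differed at least 2-fold and the interval of the ratio excluded 1. It counts as measured where either sum reached the minimum level. A gene near 0 in the other cells was thus measured only where it was high in the chosen cells, and could only be called higher. Counts and medians of measured genes in the lists below carry this limit. Over all 129 members, 234 genes (2.52% of the 9278 at 10 CPM or more) were higher than in the other cells and 21 (0.226%) were lower. In the 31 collagen-rich cells, 537 genes (14.7% of the 3664 at 50 CPM or more) were higher and 389 (10.6%) lower. With TMM scaling, an alternative chosen after seeing the data, 452 were higher and 485 lower, 48.2% of the calls higher in place of 58.0%. In the mixed cells 65 (1.98%) were higher and 34 (1.03%) lower, and in the low-collagen members 2 (0.0634%) were higher and none lower. These shares describe cells picked for their RNA, and nothing is read from them alone. The median log2 ratio over all 3664 genes in the collagen-rich cells was -0.07.

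Summed over all 129 members, matrix and mesenchymal genes were higher, and no pluripotency gene was called either way. PRRX1, a homeobox gene of mesenchyme, was at 69.4 against 0.265 CPM in the other cells, 262-fold (161 to 449) higher. FN1, the fibronectin gene, was 74.8-fold (69.6 to 80.4) higher, COL1A2 16.3-fold (14.9 to 17.9), TNC 93.2-fold (71.4 to 123) and LGALS1 18.9-fold (17.7 to 20.2). Of 32 measured matrix glycoprotein genes 21 were higher, of 18 mesenchymal markers 15, and of 22 pluripotency genes none was higher or lower. Among genes at 50 CPM or more the lowest ratios were those of the metallothionein MT2A, at 66.6 against 117 CPM, and of DTL, a replication-linked ubiquitin ligase subunit, at 30.3 against 53.2 CPM, each less than 2-fold lower. Since the groups of members differed in collagen and pluripotency UMIs, they are described apart.

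Beside the rule genes, all 6 measured fibrillar collagen genes and all 6 measured other collagen genes were higher in the collagen-rich cells, with median log2 ratios of 5.93 and 4.01. COL1A2, the partner chain of type I collagen, was at 1730.1 CPM (1574 to 1897) against 21.3 CPM in the other cells, 81.2-fold (72.9 to 90.2) higher, and had a UMI in all 31 cells. The type V chains COL5A1 and COL5A2, which set fibril width, were 85.1-fold (68.9 to 105) and 63.1-fold (50.8 to 77.8) higher. COL11A1, the cartilage-type fibril chain, was at 517 against 8.86 CPM. COL2A1, the main cartilage collagen, was at 153 against 6.30 CPM and present in 14 of 31. COL6A1 and COL6A2, which join COL6A3 in the type VI molecule, were 19.3-fold (17.2 to 21.7) and 16.6-fold (13.98 to 19.6) higher, and COL12A1, a collagen on the fibril surface, was at 161 against 0.349 CPM. In the low-collagen members COL1A2 was at 45.1 CPM, COL5A1 at 5.10 CPM and COL6A1 at 71.4 CPM.

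Of 17 measured genes that modify, fold or cross-link collagen, 14 were higher, none lower and 3 neither, with a median log2 ratio of 1.57. SPARC, a collagen-binding secreted protein, was at 1029.6 CPM (910.2 to 1160.3) against 67.6 CPM. The lysyl hydroxylase genes PLOD1 and PLOD2 were 5.85-fold (3.87 to 8.49) and 4.05-fold (2.71 to 5.84) higher, the prolyl hydroxylase genes P4HA1 and P4HA2 2.94-fold (2.25 to 3.77) and 6.70-fold (4.32 to 9.95), and the cross-linking enzyme gene LOXL2 6.89-fold (4.69 to 9.78). PPIB, a foldase of procollagen, was at 674 against 261 CPM and present in all 31 cells. Genes of the secretory pathway in general stood closer to the other cells: 10 of 26 were higher, none lower and 16 neither, with a median log2 ratio of 0.82. The KDEL receptors KDELR3 and KDELR2, which return chaperones to the endoplasmic reticulum, were 6.30-fold (4.02 to 9.42) and 4.62-fold (3.73 to 5.68) higher.

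Of 26 measured matrix glycoprotein and proteoglycan genes, 24 were higher in the collagen-rich cells, none lower and 2 (FBLN1 and LAMC1) neither, with a median log2 ratio of 5.11. FN1, which encodes fibronectin (chromosome 2, 215360440 to 215436172), was at 6809 CPM (6497 to 7133) in these cells. It was at 981 CPM in the mixed, 21.3 CPM in the low-collagen, 16.03 CPM in the other and 15.9 CPM in the wild-type non-member cells. Single collagen-rich cells held 0 to 220.2 FN1 UMIs per 10000, with a median of 59.1, and 25 of the 31 held 10 or more. The collagen-rich level was 425-fold (394 to 458) that of the other cells, while the low-collagen ratio was 1.33-fold (0.855 to 1.97).

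TNC, the gene of tenascin-C, was at 486 CPM (405 to 578) against 1.12 CPM in the other cells. MFAP4, a microfibril protein, was at 486 against 2.22 CPM, and TGFBI, a TGF-beta-induced matrix protein, at 669.8 against 7.41 CPM. DCN, which encodes the collagen-binding proteoglycan decorin, was at 207 CPM (155 to 269.7) against 0.112 CPM, with no UMI in the wild-type non-member cells. The related proteoglycan biglycan, BGN, was 51.7-fold (43.2 to 61.6) higher. Fibrillin genes FBN1 and FBN2 were 28.4-fold (21.2 to 37.4) and 24.9-fold (20.4 to 30.1) higher, while the laminin chain LAMC1 was at 80.4 against 41.9 CPM and FBLN1 at 80.4 against 69.0 CPM. These levels placed the collagen-rich cells apart from the low-collagen members, where TNC was at 3.40, DCN at 1.70 and TGFBI at 11.9 CPM.

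The stretch before the start of FN1 is shown because FN1 had the most UMIs of the glycoprotein genes in these cells. Of 8 genes looked up in the promoter table from RefSeq (GRCh38.p14), 4 matched. The line gives the 250 bases before the start of FN1 on the minus strand, 5′ to 3′, chr2:215436069-215436318, with matches to TGACGTCA, CCAAT or TATAAA on either strand in capitals.
FN1: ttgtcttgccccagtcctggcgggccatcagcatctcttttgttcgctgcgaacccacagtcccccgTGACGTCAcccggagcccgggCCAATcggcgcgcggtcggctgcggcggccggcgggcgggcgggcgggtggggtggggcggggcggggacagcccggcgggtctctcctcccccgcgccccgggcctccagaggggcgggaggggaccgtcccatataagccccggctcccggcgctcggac
The window held TGACGTCA, the letters of the cyclic AMP response element, 183 bases before the start, and CCAAT, the letters of the CCAAT box, 162 bases before it, with no overlap. Over 35116 promoter windows of this length, 1.65% held TGACGTCA, 32.0% CCAAT and 10.7% TATAAA. GENCODE also lists an FN1 transcript that starts further upstream, inside this window. Whether any motif bears on the RNA level of FN1 was not tested.

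Enzymes that cut the matrix and their inhibitors were higher too, 7 of 7 measured, with a median log2 ratio of 4.33. The metalloproteinase inhibitors TIMP1 and TIMP3 were 8.31-fold (7.19 to 9.56) and 51.4-fold (38.2 to 68.0) higher, and the matrix metalloproteinases MMP2 and MMP14 5.82-fold (4.17 to 7.93) and 23.9-fold (16.2 to 34.2). SERPINE2, an inhibitor of serine proteases, was at 762 against 38.0 CPM. ADAM12, a metalloprotease of mesenchymal cells, was at 134 against 0.335 CPM.

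**Figure D2:**
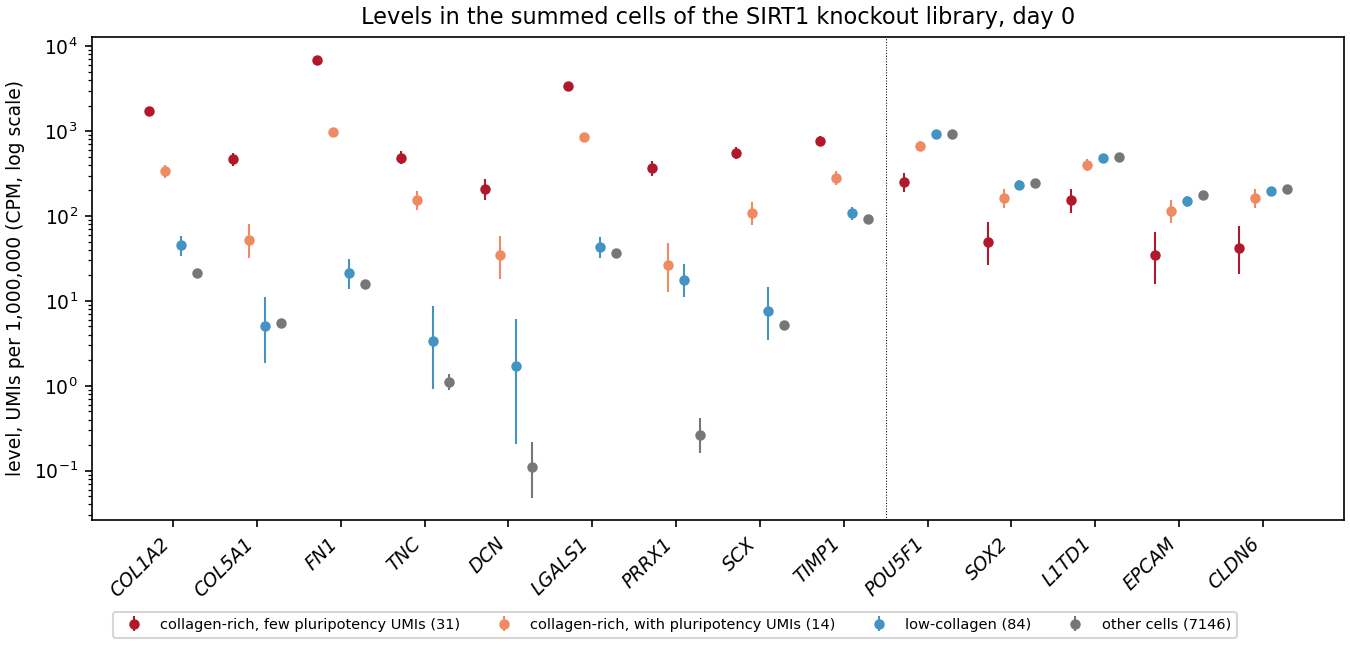
Levels (CPM, log scale) of 9 matrix or mesenchymal genes and, right of the dotted line, 5 pluripotency or epithelial genes in the summed cells of 4 groups of the knockout day 0 library; bars are exact 95% Poisson intervals. The low-collagen members lie near the other cells for most genes, and the mixed cells lie between them and the collagen-rich cells for each gene left of the line.

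Of 18 measured mesenchymal markers, 17 were higher, none lower and 1 (THY1) neither. VIM, the gene of vimentin, was at 5217 CPM (4944 to 5502) against 456 CPM, and it was found in all 31 cells. CDH11, a cadherin of mesenchymal cells, was 32.4-fold (25.0 to 41.4) higher, and PDGFRB, a receptor for platelet-derived growth factor, 36.8-fold (25.1 to 52.5). THY1, a surface marker of fibroblasts that stem cells also carry, was at 276 against 263 CPM. Several of these markers also stand in the matrix lists above.

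Among 14 measured transcription factor genes of mesenchyme, 12 stood higher and 1 lower, with a median log2 ratio of 4.66. PRRX1, a homeobox factor of limb and head mesenchyme (chromosome 1, 170662728 to 170739419), was at 364 CPM (294 to 445) against 0.265 CPM and present in 25 of the 31 cells. MEOX2 was at 57.4 against 0.0558 CPM, and SNAI2, a repressor active in epithelial to mesenchymal transition, at 91.9 against 1.59 CPM. MSX2 was at 91.9 CPM from 5 cells. ETV1 was at 61.2 against 39.5 CPM. SCX, the gene of the tendon factor scleraxis, was at 559 CPM (472 to 657) against 5.21 CPM and present in 22 of the 31.

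HOX genes, which mark position along the body axis and the limb, were scarce in sums but detected in many of the collagen-rich cells. A UMI of 1 of 16 genes of HOX groups 9 to 13 was found in 17 of 31 collagen-rich cells, 54.8% (36.0 to 72.7). It was found in 4 of 14 mixed cells, 0 of 84 low-collagen members and 18 of 7146 other cells, 0.252% (0.149 to 0.398). The 32 UMIs in the collagen-rich cells included 9 of HOXA13, 6 of HOXA10, 5 of HOXA11 and 3 of HOXD11, and HOXC genes had none. For HOX groups 1 to 8, 6 of the 31 cells held a UMI, all 6 with HOXB2. The median depth of the collagen-rich cells, 7822 UMIs, was below that of the low-collagen members with no HOX group 9 to 13 UMI, 11634.

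Of 11 measured TGF-beta and BMP pathway genes, 8 stood higher and 1 lower, with a median log2 ratio of 2.54. Among ligands, TGFB1 was 20.3-fold (14.1 to 28.4) higher and INHBA, an activin subunit, was at 145 against 0.796 CPM. The receptor gene BMPR2 was 5.68-fold (3.54 to 8.65) higher. GREM1, a secreted inhibitor of BMPs, was at 364 CPM (294 to 445) against 0.293 CPM. Among response genes, PMEPA1 was 19.05-fold (15.8 to 22.8) higher and ID1 4.82-fold (3.48 to 6.52), while ID3 was 2.42-fold (1.55 to 4.03) lower and ID2 was at 53.6 against 38.0 CPM. In the WNT list, none of 4 measured genes was higher and 3 were lower: the secreted inhibitors SFRP1 and SFRP2 by 3.29-fold (2.55 to 4.33) and 3.10-fold (2.32 to 4.25), and the receptor FZD7 by 2.45-fold (1.43 to 4.59). Under 50 CPM, other WNT genes stood the other way: the ligand WNT5A was at 45.9 CPM (23.7 to 80.2) against 1.73 CPM, with a UMI in 10 of the 31 cells, and the inhibitor DKK1 at 23.0 CPM (8.43 to 50.0) against 0.293 CPM, in 4. Over all 129 members, 3 of 10 WNT genes at 10 CPM or more were higher (WNT5A, DKK1 and the receptor FZD8) and none lower.

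Growth factor binding proteins and imprinted genes varied. IGFBP7 was at 325 against 0.558 CPM, IGFBP5 at 452 against 14.2 CPM and IGFBP3 at 145 against 2.62 CPM, while IGFBP2 was at 968 against 962 CPM. H19, an imprinted non-coding RNA, was at 455 CPM (377 to 545) against 3.62 CPM, and it was at 206 CPM in the mixed cells. The imprinted gene SNRPN was 2.56-fold (2.05 to 3.23) lower. Of 9 measured imprinted genes, 5 were higher, 1 lower and 3 neither.

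Genes of adhesion and of the cell cortex were higher as well. Of 11 measured integrin and adhesion genes, 9 were higher and 2 lower: ITGB1, the shared beta 1 integrin chain, was 5.46-fold (4.70 to 6.30) higher, ITGA5, a chain of the fibronectin receptor, 6.98-fold (4.18 to 10.98), and the collagen receptor DDR2 20.6-fold (13.7 to 29.9), while ITGA6, a laminin receptor chain, was 3.14-fold (1.80 to 6.09) lower. All 11 measured genes of the S100, annexin and galectin list were higher. LGALS1 (galectin-1) was at 3391 CPM (3172 to 3622) against 36.6 CPM, S100A4 at 938 against 38.8 CPM and ANXA2 at 873 against 33.5 CPM. Of 13 measured smooth muscle and contractile genes, 7 were higher and 6 neither: TAGLN was 17.95-fold (13.8 to 23.0) higher, ACTA2 16.4-fold (9.90 to 25.8), and the tropomyosin TPM1 5.06-fold (4.58 to 5.58), while CNN3 was at 165 against 162 CPM.

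**Figure D3:**
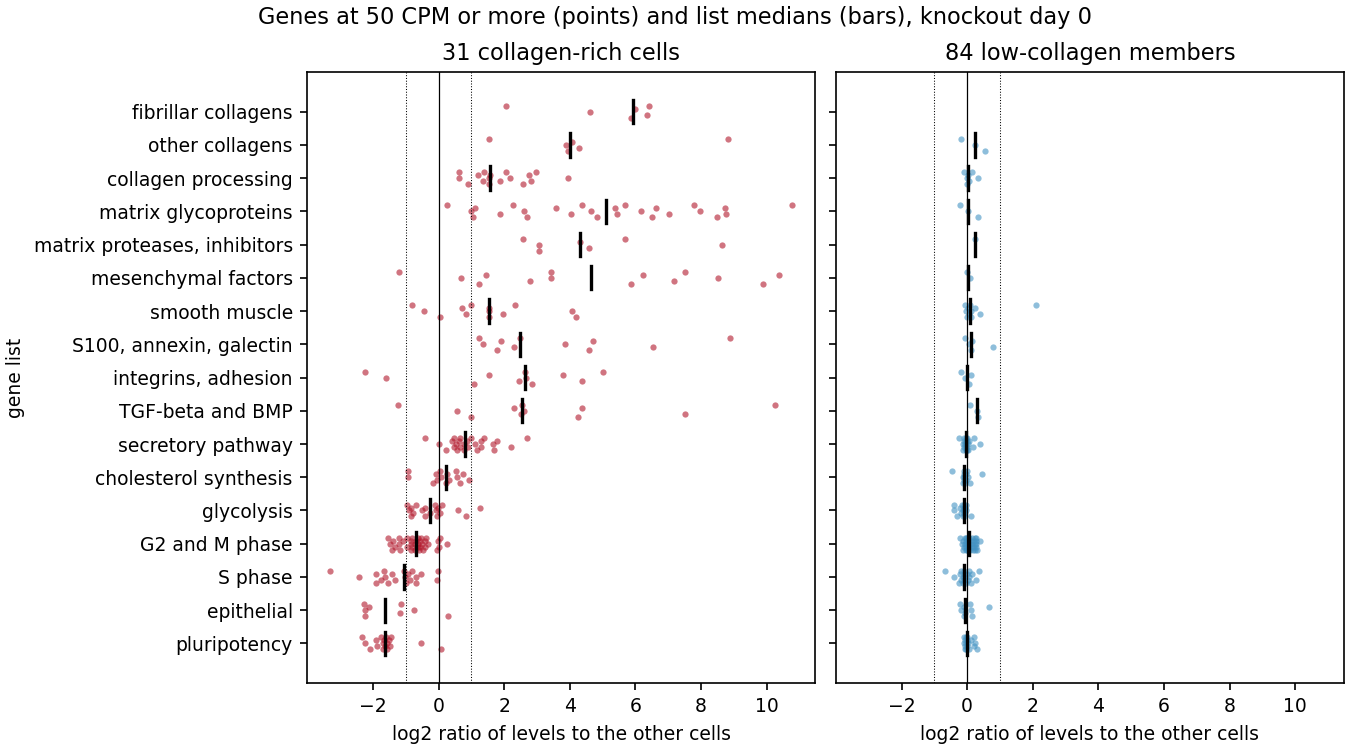
Log2 ratio of levels to the other cells for genes at 50 CPM or more (points) of 17 gene lists, with list medians (bars), in the 31 collagen-rich cells (left) and the 84 low-collagen members (right); dotted lines mark 2-fold. Matrix and mesenchymal lists lie to the right and pluripotency, epithelial and S phase lists to the left in the collagen-rich cells. Medians in the low-collagen members lie near 0. The pluripotency and epithelial lists keep genes that drew the pluripotency limit. Their shift in the collagen-rich cells thus follows in part from how these cells were set apart.

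Pluripotency RNA was low in the collagen-rich cells, in part by the way they were set apart. Leaving out the 12 genes that drew the limit, 7 of 9 measured pluripotency genes were lower and none higher, with a median log2 ratio of -1.52. Genes that vary with the 12 can be lower by the same choice of cells, so this count is not independent of it. TERF1, a telomere-binding protein gene high in stem cells, was 3.07-fold (2.28 to 4.24) lower, the surface sialomucin gene PODXL 2.91-fold (2.09 to 4.18), and the RNA-binding protein gene LIN28B 3.04-fold (1.40 to 8.28). USP44, a deubiquitinase gene expressed in stem cells, was at 76.6 against 467 CPM. Of the 12 genes themselves, POU5F1 was at 249 against 915 CPM, and 18 of the 31 cells held a UMI of it. Thinned to 4000 UMIs, 54.8% (36.0 to 72.7) of the collagen-rich and 96.6% of the other cells held a POU5F1 UMI, unthinned 58.1% and 99.2%. Free RNA at 10% would by itself give a POU5F1 UMI to 30.3% of cells at 4000 UMIs.

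Epithelial genes were lower in part too, and their count is not independent of the choice of cells either. Of 6 measured epithelial genes outside the 12, 4 were lower and none higher: the tight junction gene CLDN6 by 4.92-fold (2.75 to 9.86), the keratins KRT19 and KRT18 by 4.67-fold (2.26 to 11.6) and 2.27-fold (1.76 to 2.98), and the splicing regulator ESRP1 by 2.38-fold (1.09 to 6.49). KRT8 was at 126 against 215 CPM and desmoplakin, DSP, at 91.9 against 76.3 CPM. PTPRZ1, a receptor phosphatase, was 5.47-fold (3.20 to 10.3) lower, and PLAAT3, a phospholipase gene, 12.8-fold (4.37 to 62.0).

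Genes of the cell cycle were lower in part. Of 21 measured S phase genes, 12 were lower, none higher and 9 neither, with a median log2 ratio of -1.05, and of 37 measured G2 and M phase genes, 10 were lower, none higher and 27 neither. PRIM1, the primase subunit that starts DNA strands, had 1 UMI in the 31 cells, a level of 3.83 CPM against 56.4 CPM. MCM4, part of the replicative helicase, was 5.80-fold (2.66 to 15.8) lower, while RRM2, a ribonucleotide reductase subunit, was at 68.9 against 71.8 CPM. Thinned to 4000 UMIs, a TOP2A UMI was found in 29.03% (14.2 to 48.0) of the collagen-rich and 78.2% of the other cells, unthinned 58.1% and 91.2%. CDKN1A, which halts cyclin-dependent kinases, was 4.03-fold (3.12 to 5.13) higher, and CDKN2B was at 72.7 CPM, from 5 cells, against 0.0698 CPM.

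Few metabolic genes were called. Over all 3664 measured genes, 14.7% were higher and 10.6% lower, and the lists here are too short to be set apart from those shares. Of 19 measured glycolysis genes, 1 (PFKP, 2.33-fold (1.53 to 3.40) higher) was higher and none lower, and of 15 measured cholesterol synthesis genes none was higher or lower. Of 12 measured mitochondrially encoded genes, 1 was lower and none higher. NNMT, the methyltransferase of nicotinamide, was at 99.5 against 0.0698 CPM and present in 11 cells. B2M, the shared chain of class I HLA, was 4.25-fold (3.56 to 5.03) higher.

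Lists for other cell types ranged from near 0 to sums above those of the other cells. The 12 blood genes summed to 38.3 CPM in the collagen-rich and 3.39 CPM in the other cells, with 11 of the 12 at 0 in the former and all 10 UMIs from RUNX1. The 20 pericyte and endothelial genes summed to 115 CPM in the collagen-rich and 110.1 CPM in the other cells, with 11 at 0. The 13 endoderm genes summed to 3.83 CPM in the collagen-rich and 15.1 CPM in the other cells, the 12 cardiac genes to 45.9 CPM in the collagen-rich and 25.3 CPM in the other cells and the 16 primitive streak and early mesoderm genes to 19.1 CPM in the collagen-rich and 12.8 CPM in the other cells. The neural list of 26 genes summed to 781 CPM in the collagen-rich and 735 CPM in the other cells. In it STMN2, a tubulin-binding protein gene of neurons, was 32.5-fold (24.4 to 42.7) higher. SOX2 was lower, but it is 1 of the 12 pluripotency genes that set the collagen-rich cells apart. Of the neural crest list, the 3 measured genes MSX2, SNAI2 and SOX9 were higher, and all 3 also stand in the list of mesenchymal factors. The 22 neural crest genes summed to 509 CPM in the collagen-rich and 134 CPM in the other cells. The 15 cartilage and bone genes summed to 390.4 CPM in the collagen-rich and 173 CPM in the other cells, with SOX9 and COL2A1 higher and ALPL, an alkaline phosphatase of bone and stem cells, 2.72-fold (1.32 to 6.78) lower. The 15 amnion and extraembryonic genes summed to 207 CPM in the collagen-rich and 35.0 CPM in the other cells, with 9 at 0 and IGFBP3 the 1 gene measured. The 13 paraxial mesoderm and somite genes summed to 115 CPM in the collagen-rich and 38.7 CPM in the other cells, with 7 at 0 and MEOX2 the 1 gene measured.

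The 31 collagen-rich cells were not alike. COL1A2 was found in all 31, at 1.09 to 87.3 UMIs per 10000 with a median of 20.2, and LGALS1 in 29, at up to 98.0 with a median of 28.1. NPY, the gene of neuropeptide Y, was found in 8 of the 31, with 80.7% of its UMIs in 3 cells and up to 153 UMIs per 10000. Its summed level of 635 CPM thus rested on a few cells. H19 was found in 20, at up to 30.6 per 10000, POSTN (periostin) in 11 and GREM1 in 20. LUM was found in 18 cells and DCN in 16, both in 12. PRRX1, TNC and SCX were found together in 16, and NPY and PRRX1 in 4.

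**Figure D4:**
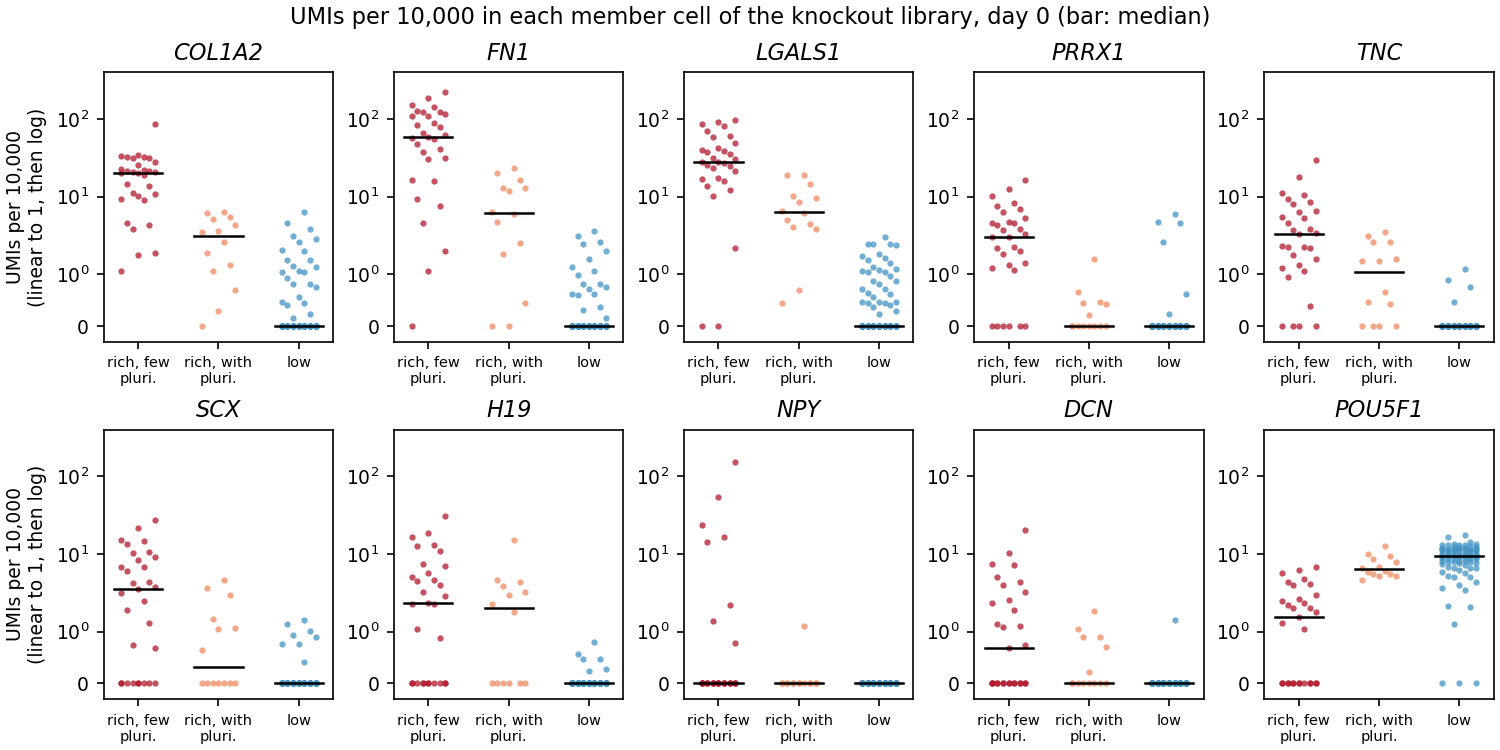
UMIs per 10,000 of 10 genes in each of the 31 collagen-rich, 14 mixed and 84 low-collagen cells (points; vertical axis linear to 1 and log above; bars are medians). COL1A2 was found in every collagen-rich cell and NPY in 8 of the 31.

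The 84 low-collagen members, the largest group under the rule, stood near the other cells in most genes measured. Of 3155 genes at 50 CPM or more, IGFBP5 and TAGLN were higher, by 4.32-fold (3.35 to 5.49) and 4.29-fold (3.32 to 5.46), and 70.8% and 76.1% of their UMIs came from 3 cells each. Their pluripotency genes summed to 5712 CPM, against 5687 CPM in the other cells. POU5F1 was at 929 against 915 CPM and VIM at 555 against 456 CPM. Their depth was greater than that of the other cells, 11634 against 8340 UMIs, and its part in reaching 2 genes was not tested. Under the limit on pluripotency UMIs stood 7 of the 84. PRRX1, under the minimum of 50 CPM, did differ: it was at 17.9 CPM (11.1 to 27.3) against 0.265 CPM in the other cells, 67.3-fold (34.5 to 132) higher, from 21 UMIs in 6 of the 84 cells, with 71.4% of them in 3 cells.

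Matrix genes were also higher in the 14 mixed cells. FN1 was 61.2-fold (54.3 to 68.9) higher than in the other cells, COL1A2 15.7-fold (13.01 to 18.8) and LGALS1 23.1-fold (20.5 to 25.9). Their pluripotency RNA was set by the limit that defined them and is not compared. Of 11 measured mesenchymal markers, 8 were higher, none lower and 3 neither.

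SIRT1, the targeted gene (chromosome 10, 67884669 to 67918390), checks whether the members carry the genotype of their label. It had 13 UMIs in the 129 members, 7.16 CPM (3.81 to 12.2), against 7.11 CPM (6.50 to 7.75) in the other cells and 32.3 CPM (30.98 to 33.6) in the wild-type non-member cells. The 31 collagen-rich cells had none in 261261 UMIs, where 3 UMIs, the floor used for a count of 0, would be 11.5 CPM. The mixed cells stood at 5.28 CPM and the low-collagen members at 9.35 CPM. All these levels lay under that of wild type. The labels do not say which part of SIRT1 was removed, so 3′ UMIs do not show whether a working transcript remained. Of UMIs outside ribosomal protein and mitochondrial genes, the share from chromosome 20 was at or above 3% in 32.3% (16.7 to 51.4) of the collagen-rich, 28.6% of the other and 96.7% of the wild-type non-member cells. It was below 2.6% in 35.5% (19.2 to 54.6) of the collagen-rich, 55.9% of the other and 0.638% of the wild-type non-member cells, and its medians were 2.91%, 2.52% and 3.46%.

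Few as they were, these cells carried much of the library's RNA for some genes. The 45 cells with 10 or more collagen UMIs, 0.619% of the cells, held 64.7% of the FN1 UMIs, 87.0% of those of DCN, 84.2% of NPY, 83.8% of GREM1, 72.4% of PRRX1 and 68.8% of TNC. The summed FN1 level of the knockout library was 2.82 times that of the wild-type library with all cells, and 1.00 times without the 45. The 2 wild-type cells with 10 or more collagen UMIs were kept in both. For COL1A2 the ratio of knockout to wild type was 0.578 and 0.427. For VIM, which the 45 cells held to 5.45%, the ratio was 1.99 and 1.90. FN1 had earlier been listed from these libraries among genes high in the knockout. Free RNA, from barcodes with 1 to 50 UMIs, held FN1 at 66.4 CPM, above the 16.03 CPM of the other cells.

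The 47 wild-type cells that met the same rule were largely like their neighbours. Their UMIs of the 4 genes had a median of 3 and a maximum of 16, and their pluripotency UMIs a median of 43.9 per 10000, against 41.5 in the wild-type non-member cells. The lowest stood at 0, 5.60 and 12.2 pluripotency UMIs per 10000, under the knockout limit of 21.8, with 4, 3 and 5 UMIs of the 4 genes. Of 3295 genes at 50 CPM or more, 8 (0.243%) were higher in the 47 cells and none lower. FN1 was at 25.1 CPM in them, COL1A2 at 48.8 CPM, and PRRX1 and NPY had no UMI. A HOX group 9 to 13 UMI was found in 2 of the 47, 4.26% (0.52 to 14.5). In the wild-type non-member cells the share was 0.383% (0.237 to 0.585). The 2 cells held 22 such UMIs, 29.02 CPM over the 47, against 1.42 CPM in the wild-type non-member cells. No wild-type cell met both limits that define the collagen-rich cells, so with 31 of 7275 against 0 of 5533 cells, and 1 library of each genotype, the genotype and the culture or library cannot be told apart.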

How the data were processed

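Droplet 3′ RNA sequencing was done on 4 libraries, 1 per genotype and day. The deposited matrices hold raw UMI counts for 36601 genes and every barcode. The authors used Cell Ranger 6.1.2 and GRCh38, per the submitters' processing notes, while the matrix headers name Cell Ranger 4. Their annotation version is unknown here, and gene positions were taken from GENCODE release 29. Deposited counts summed to 78917192 in the knockout and 78774434 in the wild-type library of day 0. Members and gene lists were chosen with earlier results of these data known. Counts were summed over cells and scaled to CPM with scanpy 1.11.5 and scipy 1.17.1. Levels carry exact Poisson, shares exact Clopper-Pearson and ratios exact conditional binomial 95% intervals, all for counting error only. With 1 library per group no test between samples was possible. Genes named were SIRT1, the 4 rule genes, the 15 highest and 15 lowest ratios of the members at 50 CPM or more and up to 5 of the largest changes per list, out of 48 lists. Further genes named for the collagen-rich cells were chosen after their values were seen. Doublets were kept, since Scrublet called 0 cells in the knockout library at its own threshold. The highest 423 scores were removed in an alternative. The ratio code was tested on simulated data. Clusters were made from 2000 variable genes, 30 components and 15 neighbours at Leiden resolution 0.5. Values of a few genes are not reported here.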

Additional observations from a re-analysis of the deposited data

Results flagged for a closer look

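At day 6, outside the main comparison, 4 knockout cells held UMIs of at least 3 of the 4 rule genes, and no wild-type cell of day 6 did. By the other measures the day 6 libraries were close: 54 of 5372 wild-type cells (1.01%, 0.756 to 1.31) and 47 of 4419 knockout cells (1.06%, 0.783 to 1.41) met the rule of 2 genes, and 10 (0.186%) and 9 (0.204%) of them held 10 or more UMIs of the 4 genes. The 4 knockout cells with at least 3 of the genes held 356, 561, 16 and 23 UMIs of the 4 genes, out of 9693, 21488, 7575 and 17482 UMIs in all. FN1 had 39, 124, 15 and 24 UMIs in the same cells, and DCN had 4, 30, 0 and 0. Their pluripotency UMIs were at most 1.14 per 10000. With 1 library per genotype the difference was not tested.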

How the results depend on the processing

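The count of 31 collagen-rich cells ranged from 16 to 35 under its alternatives, which were all chosen after seeing the data, as was the limit of 10 rule-gene UMIs. The share of members depended on the rule. In knockout and wild type it was 0.591% and 0.0181% with 3 genes, 0.687% and 0.0181% with 2 UMIs in each of 2 genes, 0.825% and 0.108% on thinned cells, and 0.619% and 0.0361% with 10 UMIs, and it was 2.35% in the knockout cells of 8000 UMIs or more. In the same order the first 4 settings gave 681, 693, 627 and 672 genes higher in members, in place of 234, and 314, 276, 195 and 317 lower, in place of 21. A mean over cells gave 412 higher and 41 lower, and no minimum level 809 and 102. Genes lower were 32 at 8000 UMIs, 56 with free RNA subtracted and 59 scaled without ribosomal protein and mitochondrial genes. SIRT1 in members, 7.16 CPM, was 3.30 with 3 genes, 2.86 with 2 UMIs in each of 2 genes and 3.12 with 10 UMIs. In the collagen-rich cells, 1281 genes were higher and 678 lower at 10 CPM or more, and 240 were lower at the 10th percentile of pluripotency UMIs, 188 at 8000 UMIs and 615 scaled without ribosomal protein and mitochondrial genes. The cause of these shifts was not tested. The log2 ratio of CDH6 in members turned from 3.02 to -1.21 with 10 UMIs. A CDH6 UMI was found in 11.9% of the low-collagen members, which that setting leaves out, and in 0% of the collagen-rich and of the mixed cells. The value of -1.21 thus rests on the count of 0.5 added to each sum, and does not show a lower level. Of 1705 values of single genes in the collagen-rich cells under the alternatives, 149 moved beyond their interval, and of 2290 in the members 735 moved. Among the genes behind these 1705 values, none called higher or lower in the collagen-rich cells changed sign. The other called genes were not followed under the alternatives. Sign changes of genes not called were not counted. Another scaling moved log2 ratios in the collagen-rich cells by -0.10 at most. No paired analysis was possible because each group had 1 library and no result came from a test, and for the same reason no replicate could be left out. The 31 cells hold 261261 UMIs, so a gene with no UMI there may still stand at 11.5 CPM, the level of 3 UMIs.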
